A study of Mus musculus with 18 samples.

Results

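The Bcl2 family decides whether the outer membrane of the mitochondrion stays closed or is opened to release the factors that start apoptosis. Its 10 members described here were taken from the 19197 genes of the deposited files by gene symbol, and each symbol matched 1 gene. They are the anti-apoptotic genes Bcl2, Bcl2l1 (Bcl-xL) and Mcl1, the pore-forming effectors Bax and Bak1, the BH3-only genes Bid, Bcl2l11 (Bim), Bbc3 (Puma) and Pmaip1 (Noxa), and Bnip3, a BH3-related protein of the outer membrane with a role in mitophagy. In the sections that follow, the last 7 are called pro-apoptotic.

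The RNA came from the heart apex of C57BL/6 mice, an inbred laboratory strain, 1 day after surgery, in 3 groups of 6 libraries. Sham vehicle hearts had a sham operation and vehicle, MI vehicle hearts had a myocardial infarction (MI) and vehicle, and MI DCA hearts had an infarction and DCA at 10 mg/kg per day. DCA is not spelled out in the labels, and is taken here as the bile acid deoxycholic acid because the study names it with the bile acid receptor TGR5. No sham group given DCA is among the samples, age and sex are not given in the labels, and each library is called a heart here although the labels do not state that each came from a separate mouse. If they did not, the p-values measure only the spread between these samples, which may be technical.

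As background, BH3-only proteins sense stress and either engage the anti-apoptotic proteins or activate Bax and Bak directly. Bax and Bak then form pores, cytochrome c leaves the mitochondrion, and caspases are activated on the Apaf1 platform. In the infarcted heart this route is one of several by which cardiomyocytes die, alongside necrosis, and several members are also abundant in the leukocytes that enter the tissue.

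Values are FPKM as deposited, a level corrected for transcript length and for the reads of the library, which is used below to set levels of different genes side by side. The libraries were made by probe capture, and FPKM does not correct for how well the probes capture each gene, so that an order of levels between genes can also reflect capture. Differences are on the log2(FPKM + 1) scale and carry their standard error (SE). A gene is called where limma, a linear model fitted across all genes, gives it an adjusted p under 0.05. This scale understates the change of genes with low FPKM, among them Bid, Bcl2, Bbc3 and Pmaip1. Estimated depth was 9500000 to 10600000 mapped reads in sham hearts, 11200000 to 13800000 in MI vehicle hearts and 10000000 to 12700000 in MI DCA hearts. The libraries of infarcted hearts were uneven. Over 12229 genes, the mean absolute log2 distance from the sham mean was 0.114 to 0.159 in sham hearts, 0.209 in MI vehicle heart 4, and 0.198, 0.173 and 0.231 in MI DCA hearts 1, 3 and 5. In the other infarcted hearts it was 0.387 to 0.623.

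In sham hearts the members spanned a wide range of levels. Bnip3 had the highest mean, 119 FPKM ± 14.0 (SD, n = 6), followed by Mcl1 at 93.4 ± 3.82 (SD, n = 6), and their values did not overlap. Bcl2l1 (34.7 ± 10.3), Bak1 (29.5 ± 2.91) and Bax (25.2 ± 4.27) formed a second tier in which neighbours overlapped. Bcl2l11 at 4.79 ± 0.581 stood below them without overlap, and Bbc3 (2.39 ± 0.506), Bcl2 (1.67 ± 0.234) and Bid (1.14 ± 0.257) overlapped with their neighbours further down. Pmaip1 had the lowest mean, 0.362 ± 0.167, equal to an estimated 5 to 17 reads per library. Mcl1 was thus the anti-apoptotic member with the highest level in sham hearts and Bcl2 the one with the lowest. In MI vehicle hearts the order of the means was Mcl1, Bnip3, Bak1, Bax, Bcl2l1, Bcl2l11, Bbc3, Bid, Bcl2 and Pmaip1, and the order in MI DCA hearts was the same. In both infarcted groups Mcl1 overlapped with Bnip3, which it had not in sham hearts, and Bak1 and Bax stood above Bcl2l1 with overlapping values.

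**Figure D1:**
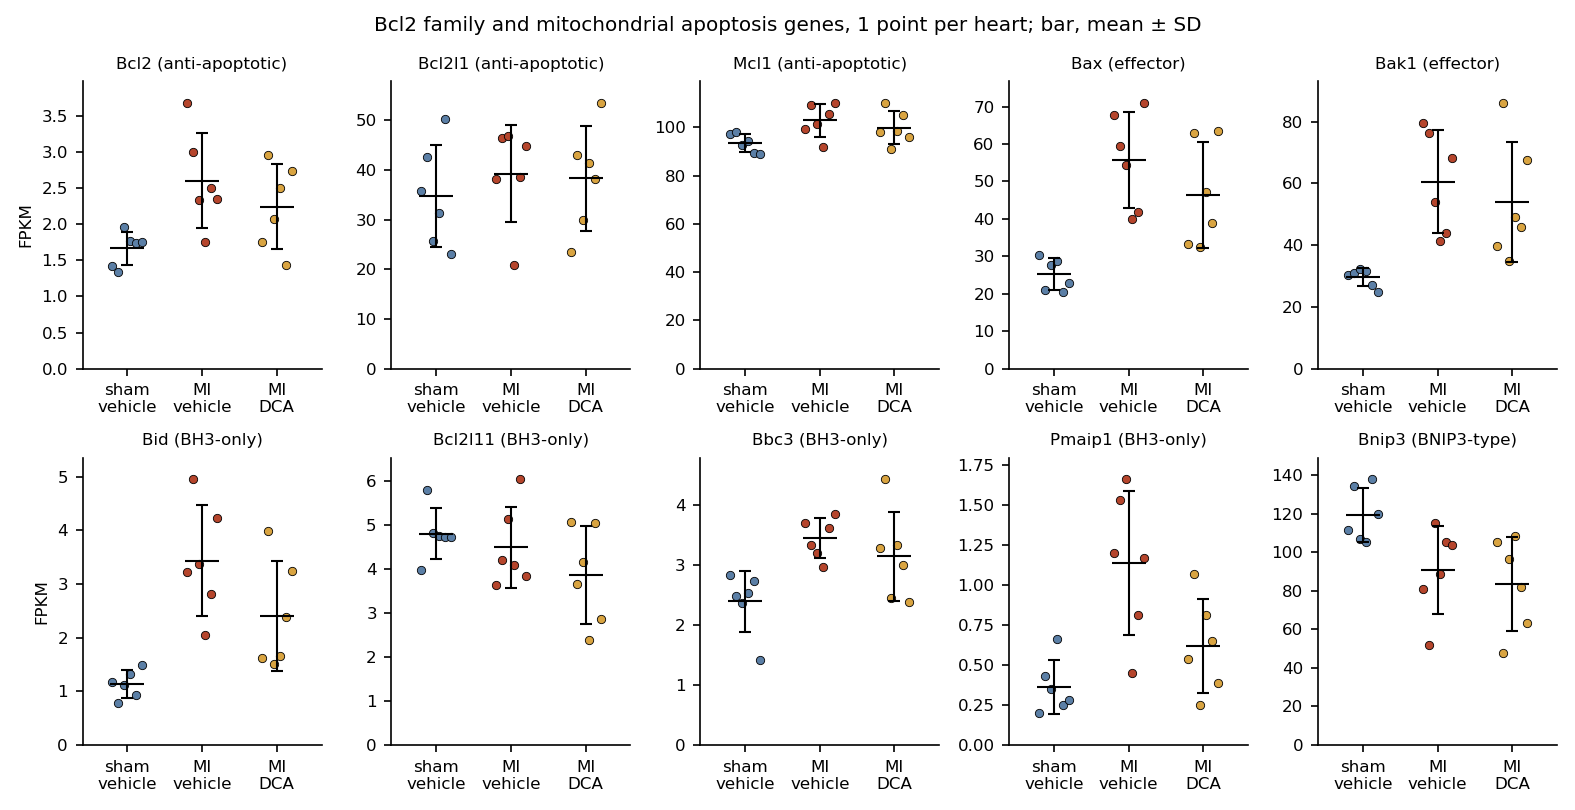
FPKM of the 10 members (vertical axes from 0, a scale for each gene) in 6 hearts of each group, 1 point per heart, with the mean and SD as a bar. Bax, Bak1 and Bid of every infarcted heart sit above all sham hearts, whereas Mcl1, Bcl2l1 and Bcl2l11 overlap between groups.

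The first comparison, MI vehicle against sham vehicle, asks how the members differed after infarction. Of the 9 members past the filter on low values, 5 were higher and 1 was lower in MI vehicle hearts. Among all 11969 genes tested, 58.4% were called, 38.3% higher and 20.1% lower, so that 5 of 9 higher and 1 of 9 lower is to be read against a high background. The 4 pro-apoptotic members that rose were Bax, Bid, Bak1 and Bbc3, out of 6 tested, and Bcl2 was the 1 anti-apoptotic member of 3 that rose. The median difference was 0.69 over the 6 pro-apoptotic members tested, 0.17 over the 3 anti-apoptotic members and 0.12 over all genes tested.

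Scaling bears on these counts. Median-ratio scaling and quantile normalization between libraries moved the median of all genes from 0.12 to -0.01 and -0.03, and turned the 4583 higher and 2408 lower calls into 3379 and 3430, and 3189 and 3693. Bax, Bak1 and Bid were higher under each scaling. Under quantile normalization Bcl2 (adjusted p = 0.0592) and Bbc3 (adjusted p = 0.0704) were no longer called, and Bcl2l11 was called lower with a difference of -0.26 (adjusted p = 0.0468). Over all 19 alternative settings, the adjusted p of Bcl2 ran from 0.000987 to 0.0592, that of Bbc3 from 0.00388 to 0.0704 and that of Bcl2l11 from 0.0468 to 0.77.

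The effectors Bax and Bak1 are the proteins that open the outer membrane. Bax (gene ID 12028, chr7:45461695-45466903, GRCm38.p6) had a lowest, median and highest value of 20.5, 25.3 and 30.2 FPKM in sham hearts and of 40.0, 57.0 and 71.0 FPKM in MI vehicle hearts. All 6 MI vehicle hearts stood above every sham heart, with hearts 6 and 1 the highest and heart 4 the lowest. The difference was 1.10 ± 0.15 (SE; adjusted p = 0.000164), a ratio of mean FPKM of 2.22. Bak1 (gene ID 12018, chr17:27019812-27028627) had a lowest, median and highest value of 24.8, 30.6 and 32.4 FPKM in sham hearts and of 41.2, 61.1 and 79.7 FPKM in MI vehicle hearts. Again the groups did not overlap, heart 1 was the highest and heart 4 the lowest. Its difference was 0.97 ± 0.16 (SE; adjusted p = 0.000356). Among all genes tested, 16.1% had all 6 MI vehicle hearts above all sham hearts, and 4 of the 9 members tested did: Bax, Bak1, Bid and Bbc3. The opposite separation was met in 5.74% of genes and in no member. In the RefSeq annotation the whole of Bak1 lies within the span of Ggnbp1, so that reads of that neighbour cannot be told apart if strand was not used in counting, which the sources used here do not give.

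The promoters of the effectors are shown because Bax is a known p53 target and because both genes rose. Each line gives the 250 bases before a RefSeq start on the GRCm38.p6 build, 5′ to 3′ on the strand of the gene. The start used for Bax lies a few bases inside the gene span given above, so that the end of its window overlaps that span. Capitals mark matches to the core of the hypoxia response element (ACGTG or GCGTG, on either strand) and to the p53 decamer, the repeated unit of a p53 response element.
Bax promoter, chr7:45466899-45467148, minus strand: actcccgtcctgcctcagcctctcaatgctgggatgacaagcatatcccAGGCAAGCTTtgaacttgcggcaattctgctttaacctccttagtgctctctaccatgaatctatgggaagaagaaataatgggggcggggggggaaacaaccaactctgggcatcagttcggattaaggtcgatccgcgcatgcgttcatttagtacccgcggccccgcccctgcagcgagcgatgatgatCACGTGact
Bak1 promoter, chr17:27028628-27028877, minus strand: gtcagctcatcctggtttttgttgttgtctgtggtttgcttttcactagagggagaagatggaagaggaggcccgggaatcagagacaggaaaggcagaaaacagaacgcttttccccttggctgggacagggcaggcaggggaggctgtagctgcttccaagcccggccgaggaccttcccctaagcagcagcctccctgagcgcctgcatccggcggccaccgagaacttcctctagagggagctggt
The Bax window held 1 p53 decamer that begins 201 bases before the start, and a palindromic CACGTG close to the start that counts as 2 overlapping core matches, beginning 9 and 8 bases before it. The Bak1 window held no match, which says only that these letters are not in it. Among 32851 mouse promoters of that length, 7.13% held the decamer and 38.6% the hypoxia core. Trp53, which encodes p53, rose by 0.91 ± 0.13 (SE; adjusted p = 0.000202) in MI vehicle hearts, from 17.9 FPKM ± 1.23 (SD, n = 6) to 35.2 ± 8.15 (SD, n = 6). Whether p53 or hypoxia had a part in the rise of Bax or Bak1 was not tested.

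Among the BH3-only members, Bid links death receptors to the mitochondrion after caspase-8 cleaves it. Bid (gene ID 12122, chr6:120893119-120917062) had a lowest, median and highest value of 0.78, 1.14 and 1.49 FPKM in sham hearts and of 2.04, 3.29 and 4.95 FPKM in MI vehicle hearts. The groups did not overlap, and MI vehicle heart 2 was the highest. The difference was 1.03 ± 0.15 (SE; adjusted p = 0.000169), and the ratio of mean FPKM was 3.02, the largest ratio among the 9 members tested. The transcript files divided Bid differently between groups. A curated transcript was above 0 in 1 of 6 sham hearts, at a median of 0 FPKM, and in 5 of 6 MI vehicle hearts, at a median of 2.96 FPKM, while a predicted transcript had a median of 1.14 FPKM in sham hearts and 0.045 in MI vehicle hearts. Such splits of single reads of 50 bases between overlapping transcripts are uncertain, and no test was made of them.

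Bbc3 and Pmaip1 encode BH3-only proteins known as targets of p53. Bbc3 (gene ID 170770, chr7:16308398-16318334) had a lowest, median and highest value of 1.41, 2.50 and 2.82 FPKM in sham hearts and of 2.96, 3.47 and 3.84 FPKM in MI vehicle hearts. The groups did not overlap, although sham heart 6 lay far below the other sham hearts. The difference was 0.40 ± 0.11 (SE; adjusted p = 0.00647). As for Bid, the transcript files divided Bbc3 differently between groups. Its leading predicted transcript had a median of 0.865 FPKM in sham hearts and 2.15 in MI vehicle hearts, and its leading curated transcript 0.935 and 0.45. These splits are uncertain in the same way, and no test was made of them. Pmaip1 (gene ID 58801, on chromosome 18) reached 1 FPKM in 4 of the 12 hearts and so did not pass the filter. It had a lowest, median and highest value of 0.20, 0.315 and 0.66 FPKM in sham hearts and of 0.45, 1.19 and 1.66 FPKM in MI vehicle hearts, with 5 of 6 MI vehicle hearts above every sham heart. Its difference was 0.63, and the two-sided exact permutation test over 924 regroupings gave p = 0.00433, not adjusted, where the smallest p such a test can give is 0.00216. Behind these values stood an estimated 13 to 53 reads per MI vehicle library.

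Bcl2l11 encodes Bim, which binds all the anti-apoptotic proteins. It (gene ID 12125, chr2:128126038-128162547) had a lowest, median and highest value of 3.97, 4.73 and 5.79 FPKM in sham hearts and of 3.63, 4.14 and 6.03 FPKM in MI vehicle hearts. The groups overlapped over most of their range, and the difference of -0.09 (95% interval -0.32 to 0.14; adjusted p = 0.503) did not pass the test. Bcl2l11 shares 215 bases at its start with Acoxl.

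Among the anti-apoptotic members 1 of 3 was called. Bcl2 (gene ID 12043, chr1:106538176-106714290), the founding member of the family, had a lowest, median and highest value of 1.34, 1.75 and 1.96 FPKM in sham hearts and of 1.75, 2.43 and 3.69 FPKM in MI vehicle hearts. Hearts of the 2 groups overlapped only through MI vehicle heart 4, the other 5 lying above every sham heart. The rise was 0.42 ± 0.12 (SE; adjusted p = 0.00763).

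Bcl2l1 (gene ID 12048, chr2:152758732-152833803) encodes Bcl-xL and, through another splice form, the pro-apoptotic Bcl-xS. It had a lowest, median and highest value of 23.0, 33.5 and 50.1 FPKM in sham hearts and of 20.9, 41.7 and 46.7 FPKM in MI vehicle hearts. Sham hearts alone spanned nearly the whole range, and MI vehicle heart 4 was below all of them. The difference of 0.17 (95% interval -0.29 to 0.64; adjusted p = 0.501) was within that spread. A predicted transcript held a median of 69.7% of the gene's FPKM in sham hearts and 74.7% in MI vehicle hearts, and the gene shares 6308 bases with Cox4i2.

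Mcl1 encodes a short-lived protein that the adult mouse heart needs. Mcl1 (gene ID 17210, chr3:95656944-95663179) was the steadiest member, with a lowest, median and highest value of 89.0, 93.5 and 98.0 FPKM in sham hearts and of 91.7, 103 and 110 FPKM in MI vehicle hearts. Although 5 of 6 MI vehicle hearts lay above every sham heart, the difference was 0.14 (95% interval -0.01 to 0.28; adjusted p = 0.102). It was called without MI vehicle heart 4 (adjusted p = 0.0278) and its difference was -0.0047 under median-ratio scaling (adjusted p = 0.957). These are the lowest and highest adjusted p of its 19 alternatives.

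Bnip3 was the only member called lower. It is a hypoxia-inducible gene whose product marks mitochondria for mitophagy. Bnip3 (gene ID 12176, chr7:138890836-138909506) had a lowest, median and highest value of 105, 116 and 138 FPKM in sham hearts and of 51.8, 96.3 and 115 FPKM in MI vehicle hearts. MI vehicle heart 2 was the lowest, heart 3 overlapped with the sham hearts, and the other 5 lay below every sham heart, heart 5 by less than 1 FPKM. The fall was -0.43 ± 0.17 (SE; adjusted p = 0.0403). That call was lost with no filter on low values (adjusted p = 0.0593), in a joint fit of all 18 libraries (0.0787), with the replicate number as a block (0.0591) and without any 1 of 6 libraries, namely sham hearts 1, 2, 5 and 6 and MI vehicle hearts 1 and 2. Over its 19 alternatives the adjusted p ran from 0.0118 to 0.0829 and the difference from -0.57 to -0.27. Its nearest relative Bnip3l (Nix) did not pass the test, with a difference of 0.01 (95% interval -0.21 to 0.23; adjusted p = 0.938), so that the ratio of Bnip3 to Bnip3l had a median of 4.15 in sham hearts and 2.98 in MI vehicle hearts, with overlapping values.

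The Bnip3 promoter is shown because the hypoxia core in it is the textbook basis of its induction, whereas the measured level was lower in infarcted hearts. It is given as above, and the capitals mark the hypoxia core.
Bnip3 promoter, chr7:138909507-138909756, minus strand: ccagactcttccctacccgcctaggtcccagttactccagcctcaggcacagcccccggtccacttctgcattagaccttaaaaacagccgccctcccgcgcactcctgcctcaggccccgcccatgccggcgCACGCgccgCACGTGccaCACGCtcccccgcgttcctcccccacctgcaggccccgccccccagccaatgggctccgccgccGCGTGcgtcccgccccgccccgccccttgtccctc
This window held 5 matches, more than any other of the 14 member windows, which cover 9 genes. They begin 117, 108, 107, 99 and 35 bases before the start, and those at 108 and 107 are the 2 strands of one palindrome. Its GC content was 72.4%, against a median of 52.4% over all promoters, and a core that contains CG is met more often in such windows. Of the 14 windows, 7, from 5 genes, held the core at least once. A list of 13 hypoxia genes outside the members held targets and Hif1a, which encodes a regulator of the hypoxia response. Of these 13, 8 rose, Hif1a among them, 1 fell and 4 did not pass the test, against 38.3% higher and 20.1% lower among all genes tested. Slc2a1 (the glucose transporter GLUT1) stood at 1.94 ± 0.31 (SE; adjusted p = 0.000321) and Ddit4, an inhibitor of mTORC1, at -0.82 ± 0.29 (SE; adjusted p = 0.0271). Under the scalings 7 of the 13 were higher and 2 lower.

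Markers of several cell types also differed between the groups. Of 15 cardiomyocyte markers, 12 fell and 1 rose, and their summed level was 67100 to 77800 FPKM in sham hearts, 39300 to 67000 in MI vehicle hearts and 39100 to 71800 in MI DCA hearts. All 15 monocyte and macrophage markers rose, with sums of 280 to 458, 552 to 1330 and 331 to 961 FPKM in the same order of groups. So did all 9 neutrophil markers tested, from 13 listed, and the sums over the 13 were 52.3 to 127, 181 to 498 and 188 to 331 FPKM. Among all genes tested 38.3% rose and 20.1% fell. Markers that passed the filter on low values only through infarcted hearts could hardly be called lower, which limits the counts of risen markers. Under median-ratio scaling 13 of the 15 and 8 of the 9 were called. No marker list had a gene at 0 in all libraries. Fewer cells of a type and less RNA per cell cannot be told apart in this bulk tissue, and the part of cell makeup in the member differences was not tested.

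Heart by heart, high Bax and Bak1 went with low cardiomyocyte sums, as a description with no test. The 4 infarcted hearts with the highest cardiomyocyte sums, MI DCA hearts 3, 1 and 5 and MI vehicle heart 4, had the 4 lowest Bax values of all infarcted hearts, from 32.4 to 40.0 FPKM. The 4 with the lowest cardiomyocyte sums, MI DCA heart 2 and MI vehicle hearts 6, 2 and 1, had Bax values from 59.4 to 71.0 FPKM and Bak1 values from 68.3 to 86.1 FPKM. Bnip3 was split within these 4 hearts, at 47.5 and 51.8 FPKM in MI DCA heart 2 and MI vehicle heart 2 and at 80.8 and 104 FPKM in MI vehicle hearts 1 and 6.

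**Figure D2:**
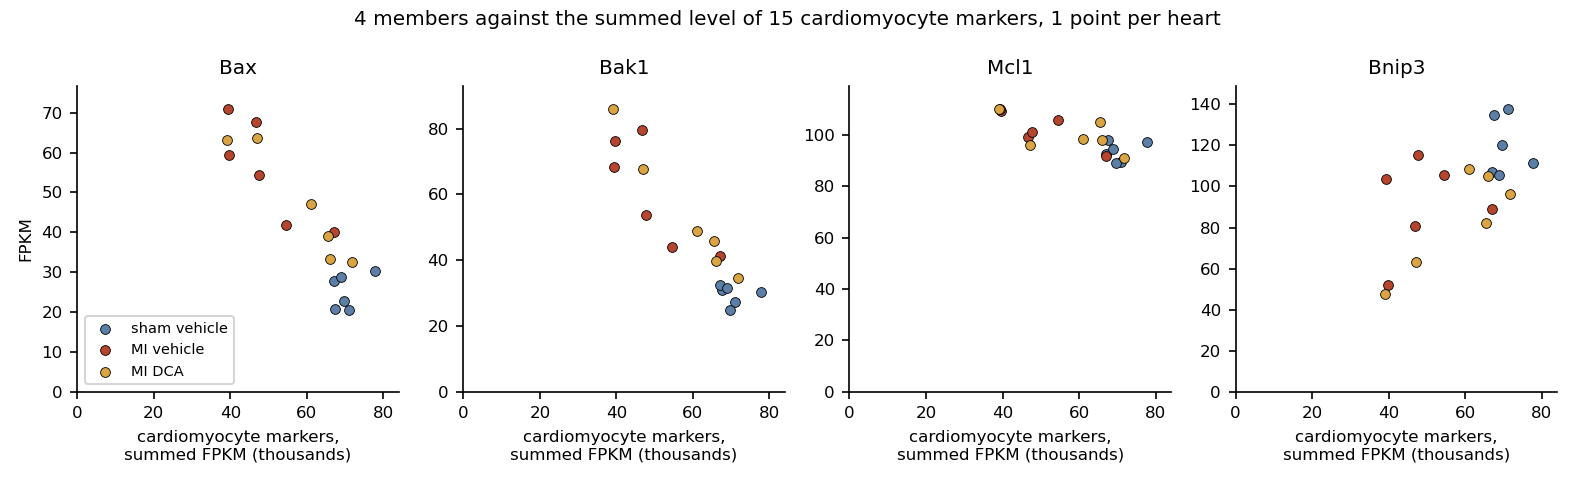
FPKM of Bax, Bak1, Mcl1 and Bnip3 (vertical axes) against the summed FPKM of 15 cardiomyocyte markers (horizontal axes, in the multiple of FPKM their label gives), 1 point per heart, coloured by group. Bax and Bak1 are highest in the infarcted hearts with the lowest sums, Mcl1 stays between 89.0 and 110 FPKM, and Bnip3 is scattered among the infarcted hearts.

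The second comparison, MI DCA against MI vehicle, asks whether the members differed with treatment after infarction. In limma none of the 9 members tested was called and none had an unadjusted p under 0.05. None of the 12004 genes tested was called either (0%), with a smallest adjusted p of 0.301, although 1299 reached 0.05 before adjustment, of which 192 were higher and 1107 lower in MI DCA hearts. Full separation of the 2 groups was met upward in 0.075% and downward in 0.467% of these genes, and in no member. The adjusted p of the members ran from 0.476 for Bid to 0.949 for Bcl2l1. All 9 point estimates were below 0, their median was -0.15, and the median over all genes tested was -0.07. The share of all genes with an estimate below 0 is not given here. All members were measured in the same hearts, so that the 9 signs are not independent. Under median-ratio scaling the estimates for Bcl2l1 and Mcl1 were above 0, at 0.04 each.

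Bax had a lowest, median and highest value of 32.4, 43.0 and 63.5 FPKM in MI DCA hearts, against 40.0, 57.0 and 71.0 FPKM in MI vehicle hearts. MI DCA hearts 6 and 2 lay among the high MI vehicle hearts, and 3 of 6 MI DCA hearts, hearts 1, 3 and 5, lay below the lowest MI vehicle heart, heart 4. Over all genes those MI DCA hearts also lay near the sham mean, at distances of 0.198, 0.173 and 0.231. MI vehicle heart 4, at 0.209, was the only heart of its group that near. The part of this unevenness in the difference was not tested. The difference of -0.28 had a 95% interval of -0.73 to 0.16 (adjusted p = 0.588). Bak1 had a lowest, median and highest value of 34.7, 47.4 and 86.1 FPKM in MI DCA hearts, and the highest of all 18 hearts was MI DCA heart 2. Its difference of -0.19 had a 95% interval of -0.70 to 0.32 (adjusted p = 0.724).

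Bid had a lowest, median and highest value of 1.5, 2.02 and 3.98 FPKM in MI DCA hearts, and 3 of them lay below the lowest MI vehicle heart. Of the members tested it had the difference farthest from 0, -0.40 (95% interval -0.84 to 0.04; adjusted p = 0.476). Its curated transcript had a median of 1.56 FPKM and its predicted one of 0.645. Pmaip1, below the filter, had a lowest, median and highest value of 0.25, 0.595 and 1.07 FPKM, an estimated 7 to 36 reads. Its difference was -0.39, with p = 0.0476 in the two-sided exact permutation test, not adjusted for the other genes. Of the 12 tests that left out 1 heart, 4 stayed under 0.05, those without MI vehicle heart 4 or 5 or MI DCA heart 2 or 4, and the p was 0.0563 under median-ratio scaling. Over all 13 alternatives it ran from 0.013 to 0.0952.

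For the remaining members the intervals bound the difference as follows. The anti-apoptotic members stood at -0.15 for Bcl2 (95% interval -0.47 to 0.17), -0.04 for Bcl2l1 (-0.52 to 0.44) and -0.04 for Mcl1 (-0.21 to 0.12), so that of all 9 members Mcl1 was bounded most narrowly. Bcl2 ranged from 1.44 to 2.96 FPKM in MI DCA hearts, Bcl2l1 from 23.4 to 53.5 and Mcl1 from 91.1 to 110. Among the pro-apoptotic members, Bcl2l11 stood at -0.19 (-0.53 to 0.15), Bbc3 at -0.12 (-0.36 to 0.13) and Bnip3 at -0.13 (-0.64 to 0.37). Bcl2l11 ranged from 2.39 to 5.05 FPKM in MI DCA hearts, Bbc3 from 2.38 to 4.42 and Bnip3 from 47.5 to 108. Each of these ranges overlapped with that of the MI vehicle hearts. The marker sums given above also overlapped between the 2 infarcted groups, and none of the cardiomyocyte or monocyte and macrophage markers was called, with list medians of 0.30 and -0.65. Their part in the member estimates was not tested.

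**Figure D3:**
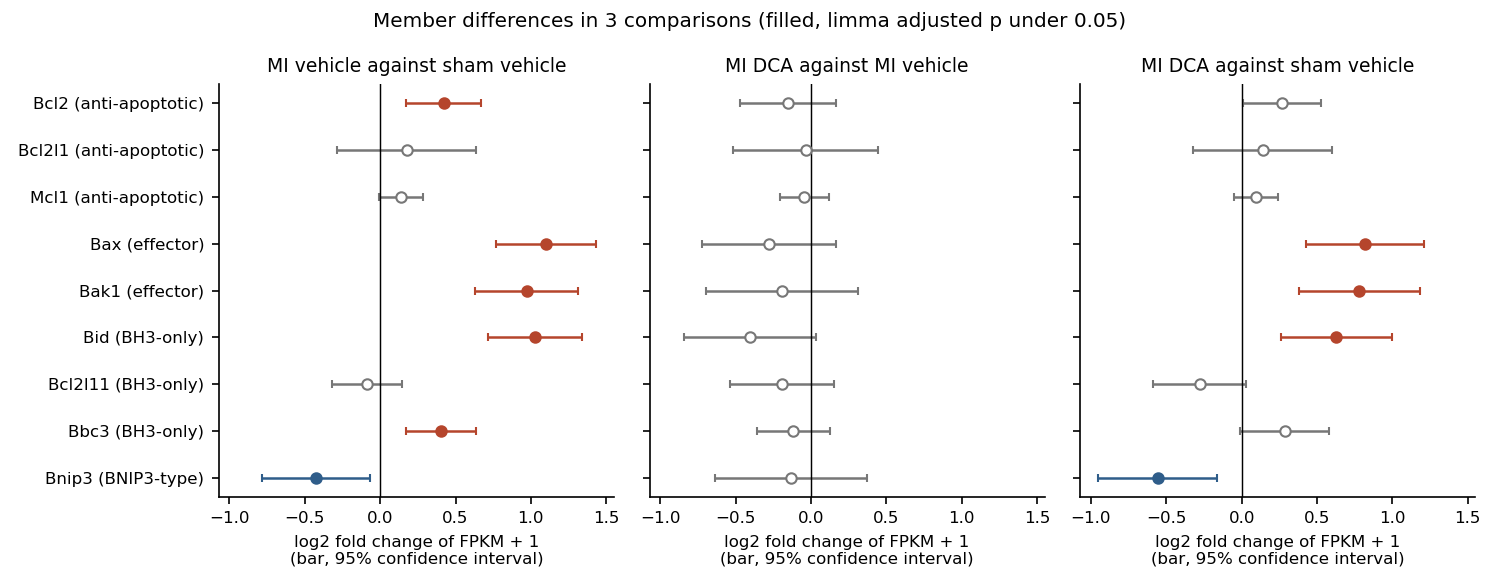
Differences on the log2(FPKM + 1) scale (horizontal axes) of the 9 members past the filter in 3 comparisons, with 95% confidence intervals as bars and filled points for an adjusted p under 0.05. Bax, Bak1 and Bid are at 0.97 to 1.10 for MI vehicle and at 0.63 to 0.82 for MI DCA, each against sham vehicle, and every interval of MI DCA against MI vehicle spans 0.

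The third comparison, MI DCA against sham vehicle, shares its sham hearts with the first, so that the values of both are set side by side and no overlap between them is counted. Of the 9 members tested, 3 were higher and 1 was lower in MI DCA hearts, against 23.8% called among all 11842 genes tested, 15.5% higher and 8.33% lower. Under median-ratio scaling the 1830 higher and 987 lower calls of all genes became 1346 and 1393, and under quantile normalization 1304 and 1555. Bax was higher by 0.82 ± 0.18 (SE; adjusted p = 0.0149), Bak1 by 0.78 ± 0.19 (SE; adjusted p = 0.0184) and Bid by 0.63 ± 0.17 (SE; adjusted p = 0.0255). In all 3 genes every MI DCA heart lay above every sham heart, for Bid with a lowest MI DCA value of 1.5 against a highest sham value of 1.49 FPKM. Such separation was met upward in 6.31% and downward in 2.84% of all genes tested. The call for Bid was lost without sham heart 2 (adjusted p = 0.0549), sham heart 5 (0.0562) or MI DCA heart 6 (0.0564), within a range of 0.0117 to 0.0564 over its 19 alternatives. The call of Bax and of Bak1 held in all 19 alternatives of theirs.

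Bnip3 was lower by -0.56 ± 0.18 (SE; adjusted p = 0.0445), with 5 of 6 MI DCA hearts below every sham heart, and passed the test in 7 of 19 alternatives (adjusted p from 0.0259 to 0.0962). It failed in 9 of the 12 fits that left out 1 heart, among them every fit without a sham heart and those without MI DCA heart 2, 5 or 6. Bcl2 at 0.27 (adjusted p = 0.11) and Bbc3 at 0.29 (adjusted p = 0.127), both called in MI vehicle hearts, did not pass here, and neither was called between the infarcted groups. Bcl2 was called without MI DCA heart 5 (adjusted p = 0.0363, the lowest of its 19 alternatives, which reached 0.241). Bcl2l11 at -0.28 (adjusted p = 0.149), Bcl2l1 at 0.14 (0.636) and Mcl1 at 0.09 (0.309) did not pass. Pmaip1 differed by 0.24, with p = 0.0974 in the two-sided exact permutation test.

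The balance of effectors to anti-apoptotic genes was taken as a ratio of FPKM within each heart, given as a description with no test, since such ratios of transcripts say nothing of protein. Bax to Bcl2, a commonly quoted index, had a lowest, median and highest value of 11.8, 14.9 and 21.1 in sham hearts, 16.6, 21.3 and 30.1 in MI vehicle hearts and 15.6, 20.1 and 27.1 in MI DCA hearts. The groups overlapped, with 3 of 6 hearts of each infarcted group above sham heart 1, the highest of its group. Bax to Bcl2l1 had a median of 0.883 in sham hearts, 1.43 in MI vehicle hearts and 1.16 in MI DCA hearts. All 6 MI vehicle hearts and 5 of 6 MI DCA hearts lay above every sham heart. Bak1 to Mcl1 ran from 0.279 to 0.35 in sham hearts, 0.417 to 0.803 in MI vehicle hearts and 0.381 to 0.782 in MI DCA hearts, so that both infarcted groups stood above the sham group. The sum of Bax and Bak1 per sum of Bcl2, Bcl2l1 and Mcl1 had a median of 0.435, 0.788 and 0.634 in the same order, again with both infarcted groups above every sham heart and overlapping each other. The denominator had medians of 131, 148 and 144 FPKM, whereas the sum of Bax and Bak1 had medians of 55.9, 122 and 90.4 FPKM. The summed BH3-only members Bid, Bcl2l11, Bbc3 and Pmaip1 had medians of 8.62, 13.2 and 9.69 FPKM, and MI vehicle hearts lay above every sham heart. The share of other gene pairs or sums that separate in this way was not computed. Bax and Bak1 alone already stood above every sham heart in both infarcted groups, so that the ratios are no further support.

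**Figure D4:**
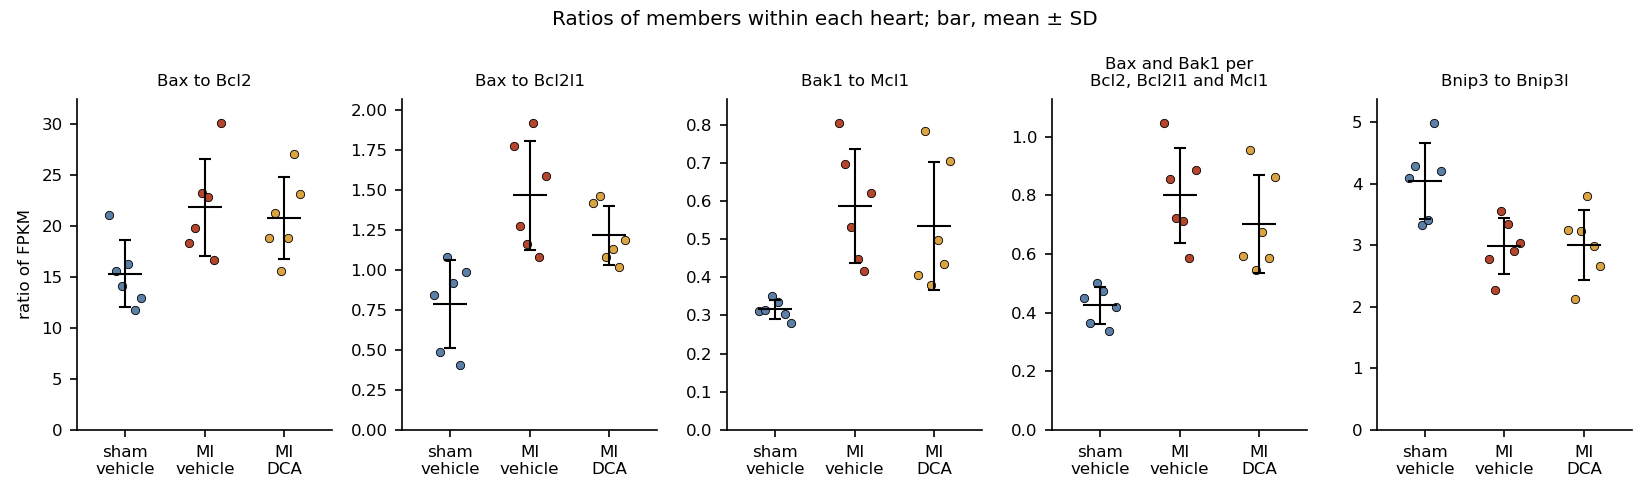
Ratios of FPKM within each heart (vertical axes from 0), 1 point per heart, with the mean and SD of 6 hearts as a bar. Bak1 to Mcl1, and Bax and Bak1 per Bcl2, Bcl2l1 and Mcl1, do not overlap between sham and either infarcted group, whereas Bax to Bcl2 does.

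The wider family was described from lists of its other genes, by counts and medians with no test of a list. For MI vehicle against sham vehicle, every count is to be read against the 38.3% higher and 20.1% lower of all genes tested. The third effector gene, Bok, which unlike Bax and Bak1 is not held back by the anti-apoptotic proteins, also rose in MI vehicle hearts, by 0.74 ± 0.13 (SE; adjusted p = 0.000612), so that 3 of 3 effectors rose under each scaling. Of 6 anti-apoptotic genes tested, from 8 listed, 4 rose and none fell, and 3 and 2 rose under the median-ratio and quantile scalings. In MI DCA against sham vehicle 5 of the 8 passed the filter on low values. A gene that passed only through MI vehicle hearts could hardly be called lower, which limits the count of 4. Bcl2a1b, an anti-apoptotic gene of leukocytes, had the largest rise, 2.19 ± 0.26 (SE; adjusted p = 6.14e-05), from 2.40 FPKM ± 1.09 to 15 ± 6.58 (SD, n = 6 each). The mouse has several nearly identical Bcl2a1 genes, between which the reads of any one are uncertain. Bcl2l2 (Bcl-w) rose by 0.19 ± 0.08 (SE; adjusted p = 0.0448), a call lost under both scalings (adjusted p = 0.525 and 0.514). Among 6 BH3-only genes tested, Bid, Bbc3 and Bik rose and none fell. The call of Bik was lost under both scalings (adjusted p = 0.0524 and 0.114), and under quantile normalization 1 rose and 2 fell. Of the BNIP3-type and other genes, Bnip2 rose by 0.27 ± 0.08 (SE; adjusted p = 0.0122) beside the fall of Bnip3. Under both scalings none of this list rose, Bnip2 included (adjusted p = 0.133 and 0.0773), and 2 fell.

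Downstream of the mitochondrion, 3 of 7 apoptosome and caspase genes rose and 1 fell, shares near those of all genes. Under median-ratio scaling 2 rose and 1 fell, and under quantile normalization 2 rose and 2 fell. The 1 that fell as deposited was Cycs, which encodes cytochrome c and serves respiration as well as apoptosis. Cycs fell by 0.58 on the log2 scale (adjusted p = 0.00591). Of 4 released factors, Htra2, a protease, rose by 0.49 ± 0.10 (SE; adjusted p = 0.00111), and 2 fell, among them Aifm1, a mitochondrial flavoprotein, at -0.51 ± 0.10 (SE; adjusted p = 0.00109). Of 6 inhibitor of apoptosis genes 3 rose and 1 fell, shares near those of all genes, with Birc5 (survivin), which is also a gene of mitosis, at 1.25 ± 0.26 (SE; adjusted p = 0.00156) and Birc2 at -0.32 ± 0.08 (SE; adjusted p = 0.004). Dffb, the apoptotic nuclease, was the 1 of 3 nuclease and substrate genes called, at -0.42 ± 0.13 (SE; adjusted p = 0.0123).

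Lists of other mitochondrial genes held mostly falls. Of 8 channel and permeability transition genes 2 rose and 5 fell (0 and 6 under median-ratio scaling), the largest fall being that of Slc25a4 (-0.78 ± 0.17, SE; adjusted p = 0.00203), the adenine nucleotide carrier of heart muscle, and the larger rise that of its relative Slc25a5 (0.35 ± 0.09, SE; adjusted p = 0.00629, and 0.0745 under median-ratio scaling). Of 8 fission, fusion and cristae genes none rose and 5 fell, led by the outer-membrane fusion gene Mfn1 (-0.70 ± 0.14, SE; adjusted p = 0.00105). Of 11 mitophagy and autophagy genes none rose and 7 fell, led by the mitophagy receptor Optn (-0.94 ± 0.17, SE; adjusted p = 0.000742). The median differences of these 3 lists were -0.29, -0.28 and -0.40, and they stayed below 0 under both scalings. The fall of cardiomyocyte markers given above, with a median of -0.79, moved with them, and its part in these falls was not tested. Of 5 genes that control Mcl1 turnover 2 fell, among them the ubiquitin ligase gene Fbxw7 (-0.40 ± 0.13, SE; adjusted p = 0.0169).

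Upstream of the members, 7 of 8 death receptor genes tested rose, led by Casp8 (0.87 ± 0.15, SE; adjusted p = 0.00048), whose product cleaves Bid, and Fas itself fell (-0.59 ± 0.15, SE; adjusted p = 0.0048). For p53 and its targets outside the members, 10 of 14 rose and 2 fell, against 38.3% and 20.1% of all genes, with Cdkn1a (p21) at 1.38 ± 0.34 (SE; adjusted p = 0.00416) and Ccng1 (cyclin G1) at -0.77 ± 0.17 (SE; adjusted p = 0.0022). In MI DCA against sham vehicle only 12 of these 14 passed the filter on low values. A gene that passed only through MI vehicle hearts could hardly be called lower, which limits the count of 10. Of 9 stress regulators of BH3-only genes 6 rose and 1 fell, the extremes being Atf3 (2.24 ± 0.31, SE; adjusted p = 0.00015) and Foxo3 (-0.89 ± 0.17, SE; adjusted p = 0.00077), a transcription factor known to drive Bcl2l11 and Bbc3. The medians of these 3 lists were 0.59, 0.53 and 0.73, and were above 0 under both scalings.

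**Figure D5:**
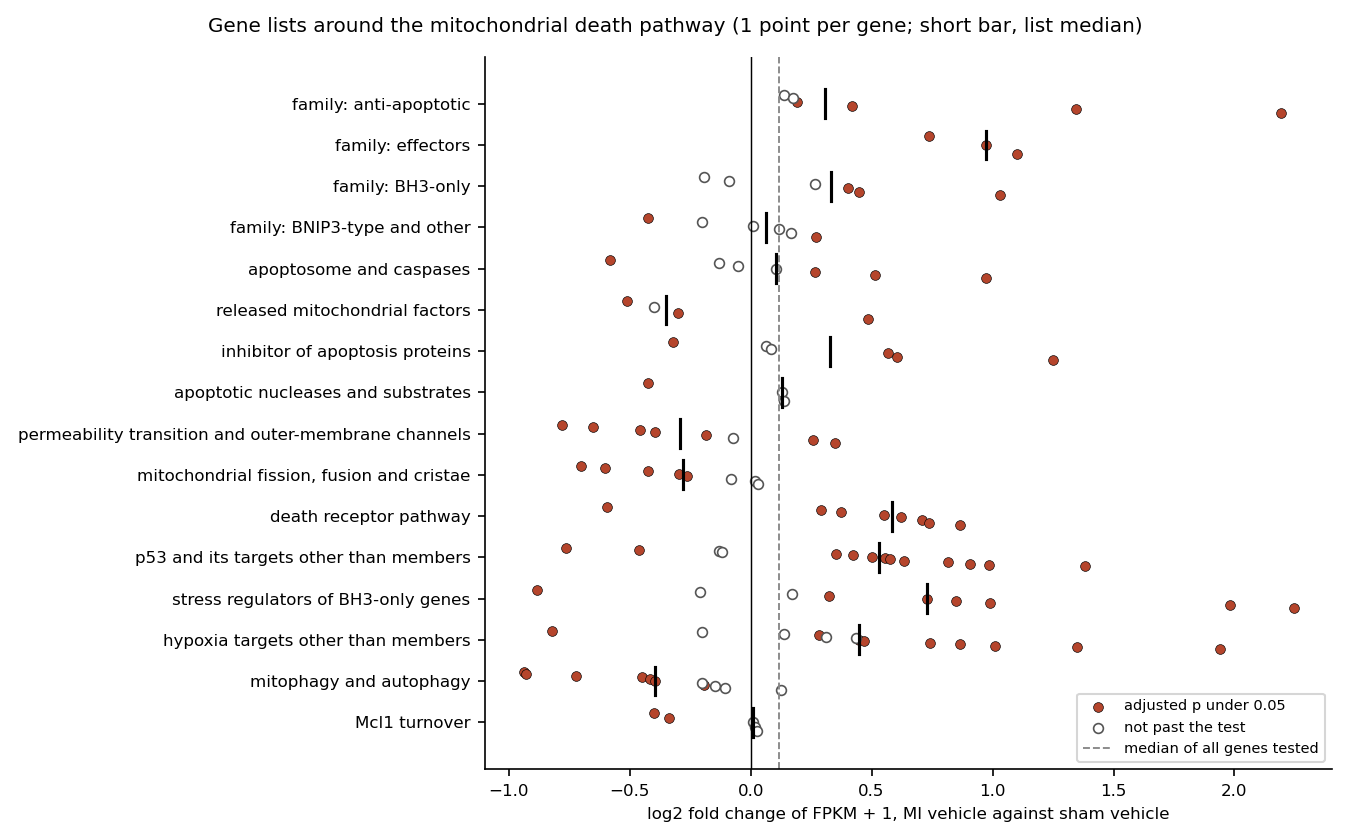
Differences on the log2(FPKM + 1) scale of MI vehicle against sham vehicle (horizontal axis) for every tested gene of 16 lists, 1 point per gene, filled where called, with the list median as a short bar and the median of all genes tested, 0.12, as a dashed line. Effector, death receptor and p53 genes lie mostly to the right, and channel, fusion and mitophagy genes mostly to the left.

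No gene of the 16 lists was called in MI DCA against MI vehicle hearts, as no gene was among all those tested. Against sham vehicle, MI DCA hearts had 2 of 3 effectors, 5 of 8 death receptor genes and 4 of 12 p53 genes called higher, against 15.5% of all genes tested. Under the median-ratio and quantile scalings the first 2 counts were the same, and of the p53 genes 2 and 1 were called higher and 2 and 2 lower, in place of 4 and 1. The genes named by the rule included Trp53 at 0.72 ± 0.15 (SE; adjusted p = 0.0114) and Tradd, an adaptor of the TNF receptor, at 0.59 ± 0.15 (SE; adjusted p = 0.0223). The BH3-only genes Bik and Bad were called higher besides Bid, at 0.57 ± 0.11 (SE; adjusted p = 0.00967) and 0.37 ± 0.11 (SE; adjusted p = 0.0362), the latter lost under both scalings (0.0525 and 0.0579). Bcl2a1b stood at 1.34 ± 0.33 (SE; adjusted p = 0.0189), Atf3 at 1.84 ± 0.38 (SE; adjusted p = 0.0116) and Slc2a1 at 0.99 ± 0.33 (SE; adjusted p = 0.046). The call of Slc2a1 was lost under both scalings (adjusted p = 0.0574 and 0.0576), under which 0 of the 13 listed hypoxia genes were called higher in place of 3. Lower calls included Optn at -0.88 ± 0.14 (SE; adjusted p = 0.00492), Foxo3 at -0.77 ± 0.18 (SE; adjusted p = 0.0178), Opa1, the inner-membrane fusion gene, at -0.51 ± 0.10 (SE; adjusted p = 0.00897) and Ppif, which encodes cyclophilin D of the permeability transition, at -0.45 ± 0.10 (SE; adjusted p = 0.0165). The other genes named by the same rule were Htra2 (0.31) and Naip2 (0.31), an inhibitor of apoptosis gene, among the higher and Ccng1 (-0.49), Aifm1 (-0.39) and Pdk1 (-0.30), a kinase that restrains pyruvate dehydrogenase, among the lower. Of these, Htra2 was no longer called under either scaling (adjusted p = 0.0645 and 0.0632).

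The members also varied within groups. The SD of log2(FPKM + 1) around the group means was largest for Bcl2l1 (0.418), then Bak1 and Bnip3 (0.371 each) and Bax (0.344), and smallest for Mcl1 (0.086). This order holds for that scale, which compresses low values. As a share of the mean FPKM, the SD was largest for Pmaip1, at 46.1%, 39.6% and 47.7% in sham, MI vehicle and MI DCA hearts. For the 4 most variable members on the log2(FPKM + 1) scale, the genes most alike in these deviations were sought among 8498 genes over the 18 libraries. Bcl2l1 was most like Adgrg1 (Pearson r = 0.881) and Zfp36 (0.849), Bak1 most like Tbrg1 (0.974) and Cyb5r3 (0.967), Bax most like Dynll1 (0.961) and Sec61b (0.959), and Bnip3 most like Vegfa (0.921) and P3h4 (0.836). These values are a description with no test, since both genes of a pair are measured in the same libraries, with the same depth and cell makeup in each. Vegfa, the angiogenic factor, had 81.5 to 106 FPKM in sham hearts, 55.7 to 150 in MI vehicle hearts and 47.0 to 132 in MI DCA hearts, and its difference of 0.14 in MI vehicle hearts (95% interval -0.27 to 0.55; adjusted p = 0.556) was not called.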

How the data were processed

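RNA of 18 heart apex samples was enriched with RNA Access probes, and a BGISEQ-500 sequenced 50 bases from 1 end, per the labels' protocols. GRCm38.p6 is the build in the submitters' processing notes, which list RSEM 1.2.12, Bowtie2 2.2.5 and DESeq2 1.4.5 without their roles; whether counting used strand is not given in the sources at hand. The deposited values are FPKM with 2 decimals per gene and per transcript, made by the authors; the unit was read from the values, and a gene equals the sum of its transcripts within 0.04 FPKM.

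The 10 members and all gene lists were chosen with earlier results of these data known, so that no list is independent support. Each of 3 comparisons was fitted over all genes that reached 1 FPKM in 6 or more of the 12 libraries, with limma 3.58.1 in R 4.3.3 (intensity trend, log2(FPKM + 1), Benjamini-Hochberg adjustment, no covariates). Members below that filter got a two-sided exact permutation test. The text names all members, the called gene with the largest rise and fall of each list and comparison, and the 2 genes most like each of the 4 most variable members; other genes (Bok, Bcl2l2, Bik, Bad, Bnip3l, Trp53 in MI vehicle hearts) were chosen after their values were seen, and 1 gene that the rule names is not reported here. Alternatives were the pseudocount (0.1), no filter, 2 scalings between libraries, a fit of all 18 libraries, the replicate number as a block, no trend and leaving out each library. Depth was estimated from 1-read steps of 1846 genes with a single transcript, searched from 8000000 to 16000000 reads, so that a multiple of the true depth cannot be told apart; FPKM without counts gives no counting interval. The fit was also run on simulated data as a self-test, whose outcome is not given here. Promoter sequences and coordinates are from RefSeq tables of GRCm38.p6, in which 99.2% of gene IDs matched; no promoter of the member on chromosome 18 is printed. Descriptions used pandas 2.3.3.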

Additional observations from a re-analysis of the deposited data

Results flagged for a closer look

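Each group of 6 hearts was examined for a highest or lowest heart that stood apart, by a gap to its nearest neighbour beyond Dixon's critical value for its share of the group's range, for 46 genes and sums. Of 138 groups 4 had such a heart, and chance gives about 1 in 20. Bcl2l1 stood at 20.9 FPKM in MI vehicle heart 4, against 38.1 to 46.7 in the other MI vehicle hearts. Bbc3 stood at 1.41 FPKM in sham heart 6, against 2.37 to 2.82 in the other sham hearts. Ccng1 stood at 286 FPKM in MI vehicle heart 4, against 117 to 172 in the others, and Tradd at 8.54 FPKM in MI vehicle heart 6, against 4.69 to 6.02.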

How the results depend on the processing

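For MI vehicle against sham vehicle, Bax, Bak1 and Bid kept their direction and call in all 19 alternatives, and the unadjusted exact p of Pmaip1 was under 0.05 in all 13 of its own. The count of members called higher was 5, then 3 with quantile normalization, 6 with no filter, and 5 to 6 with 1 heart left out (6 without MI vehicle heart 4); members called lower were 1, then 0 with no filter, 0 with all 18 libraries in 1 fit, 0 with the replicate block, 2 with quantile normalization and 0 to 1 with 1 heart left out. Quantile normalization gave 3693 genes called lower in place of 2408. Mcl1 changed sign to -0.0047 with median-ratio scaling.

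For MI DCA against MI vehicle, no member was called in any limma alternative, and without MI vehicle heart 5 there was 1 gene called lower among all tested (0 to 1 with 1 heart left out). Estimates changed sign for Bcl2l1 with median-ratio scaling (0.0447), quantile normalization (0.0078) and 5 fits without 1 heart (range over all 12 such fits -0.20 to 0.0921), for Mcl1 with median-ratio scaling (0.0379) and for Bnip3 without MI DCA heart 2 (range over the 12 fits -0.28 to 0.0182).

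For MI DCA against sham vehicle, members called lower were 0 in place of 1 with no filter, with all 18 libraries in 1 fit and with the replicate block, and 0 to 1 with 1 heart left out. Genes called lower were 1555 with quantile normalization, and with the replicate block 1124 were called higher and 572 lower, in place of 1830 and 987. With 1 heart left out, 740 to 2596 were called higher and 315 to 1489 lower, the fewest without sham heart 5 and the most without MI DCA heart 3. The cause of these changes was not tested.

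No clear pairing by replicate number was seen, though 6 pairs are too few to decide. Same-numbered hearts correlated in their deviations at -0.049 to 0.138, -0.44 to 0.686 and -0.087 to 0.223 in the 3 comparisons. In each, 1 of 6 correlated best with its own number. Correlations above 0.1 were met in 4 of 6 pairs for MI DCA against MI vehicle, and in 1 of 6 for each other comparison. The block changed no member call besides that of Bnip3. List counts under the scalings were added after seeing the data. Pmaip1 rests on few estimated reads.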
